A study of Mus musculus with 4 samples.

Results

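The day to night change of liver miRNAs in *Clock* mutant mice was read from 2 of the 4 arrays of the study: the mutant array at ZT2, 2 h after lights on, and the mutant array at ZT14, 14 h after lights on. ClockΔ19 is an allele of the core clock gene *Clock*. All mice were male, entered at 6 to 8 weeks of age, lived alone under 12 h of light and 12 h of darkness with free food and water for 2 weeks, and no treatment is named in the labels. The groups were CLOCK mutant at ZT2 and at ZT14 and WT at ZT2 and at ZT14, and each was 1 array hybridized with RNA pooled from the livers of 3 mice. WT arrays are set beside the mutant pair only where a value of theirs is needed. The members are all mouse miRNAs on the arrays, 611 by name, and 163 of them were detected on at least 1 mutant array.

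A miRNA is a short RNA, cut from a hairpin precursor, that lowers the output of mRNAs pairing with its seed, which is bases 2 to 8 of the mature strand. CLOCK, with its partner BMAL1, binds E-box elements and drives rhythmic transcription of many liver genes, and ClockΔ19 yields a CLOCK protein that binds DNA but activates transcription poorly. Mature miRNAs are long lived, so their levels usually swing less over a day than those of their precursors. In liver, hepatocytes carry very high levels of miR-122, and blood, bile duct and vessel cells contribute their own miRNAs to whole tissue RNA.

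There was 1 array per time point and therefore no replicate and no test of the mutant change. The only error that could be given is the SD of single spots within a probe, written here as spot SD. It was computed on each array in log2 units, and the ZT2 and ZT14 values were combined as the root of their summed squares. It is the spread of single spots and not the error of a mean over spots. It is a technical error and leaves out variation between mice. Signals are the scanner's background-subtracted intensities in arbitrary units, averaged over 20 spots per miRNA less outlier spots. Ratios of ZT14 to ZT2 are of signals divided by a 75th percentile, taken on each array over the 123 miRNAs that all 4 arrays detected. That percentile was 503 units at ZT2 and 536 at ZT14, so the mutant arrays were almost equally bright. Negative control spots averaged 5.24 and 9.72 units. miR-122 was the brightest miRNA on both mutant arrays, with 55936 units at ZT2 and 52644 at ZT14. The 7 muscle miRNAs and the 6 neuron miRNAs of the array that were looked for, among them miR-1, miR-133a, miR-124 and miR-9, were detected on neither mutant array. Neither reading goes against the liver label, while the genotype cannot be checked on a miRNA array.

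The sequences of the miRNAs with the largest differences come first, since one set of them is built alike. Sequences are mature strands from RefSeq (GRCm38.p6), 5′ to 3′, with the seed in capitals. The array names give no arm for some of them, and those were matched to the arm that the older name stood for. These 6 miRNAs were all lower at ZT14 and carry runs of alternating C and A or of alternating U and G:
miR-574-5p: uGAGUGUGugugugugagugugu
miR-1187: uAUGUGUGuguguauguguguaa
miR-467f: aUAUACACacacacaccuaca
miR-466i: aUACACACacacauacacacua
miR-467g: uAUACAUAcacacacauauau
miR-574-3p: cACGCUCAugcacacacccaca

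The longest alternating run was 13 bases in miR-574-5p, 12 in miR-467f, 11 in miR-1187 and in miR-466i, 9 in miR-467g and 7 in miR-574-3p. The genes of miR-574, miR-1187 and miR-467g lie on chromosome 5, that of miR-467f on chromosome 11 and that of miR-466i on chromosome 13.

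The other miRNAs whose differences are described at length share no such runs, and they are shown so that their seeds can be compared with those of the families below:
miR-144: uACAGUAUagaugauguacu
miR-451: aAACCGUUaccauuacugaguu
miR-212: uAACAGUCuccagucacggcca
miR-494: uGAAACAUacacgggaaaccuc

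The genes of miR-144, miR-451 and miR-212 lie on chromosome 11 and that of miR-494 on chromosome 12.

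Most miRNAs of the mutant liver differed little between the time points, and the large differences were decreases at ZT14. Both mutant arrays detected 140 miRNAs, 21 were detected at ZT2 only and 2 at ZT14 only. Of the 163 miRNAs, 22 were at least 2-fold lower at ZT14, or 13.5%, and 0 were at least 2-fold higher, or 0%. For 9 of the 22 both arrays gave a measurement (6.43% of the 140), while the other 13 were not detected at ZT14 and have bounds only. Among the 140 miRNAs, 127 differed by less than 1.5-fold. The members of a list of repeat-like miRNAs made up 16 of the 22, and only 6 were outside it. miR-494 was the largest increase, at 1.74-fold. Normexp background correction replaced the scanner's background subtraction and added an offset of 50 to every spot. Under it, 5 miRNAs were at least 2-fold lower.

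**Figure D1:**
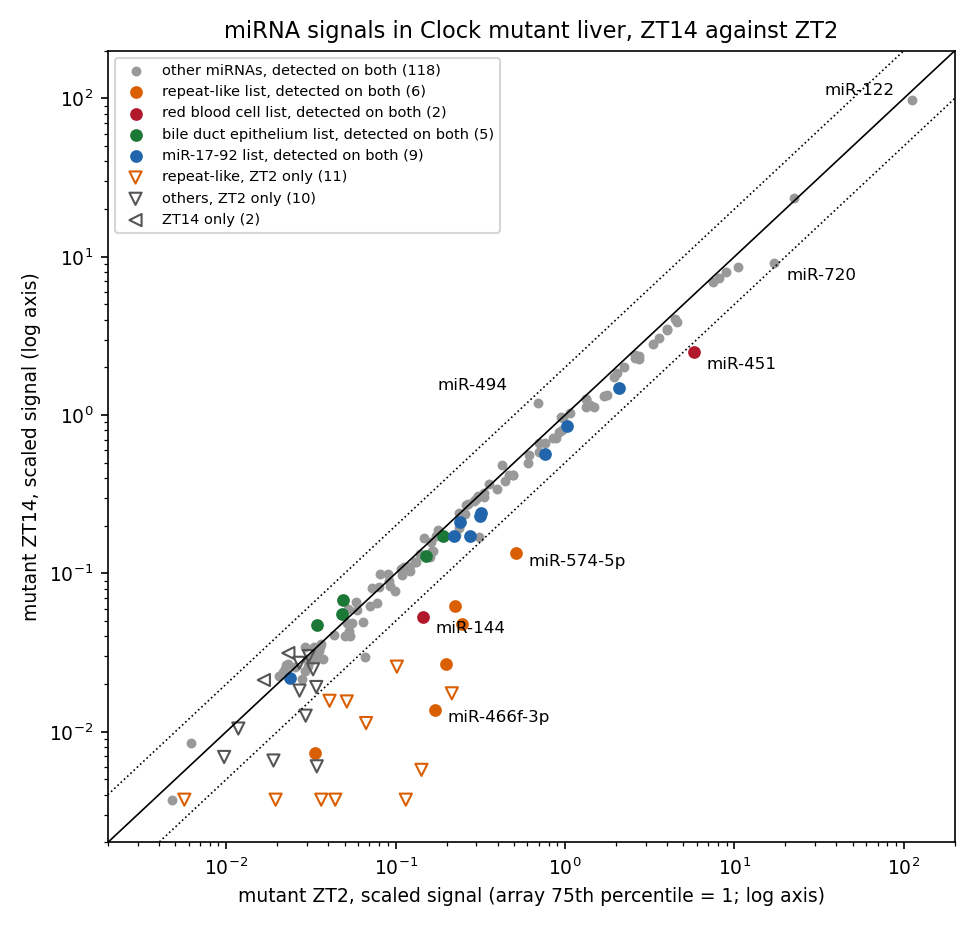
Scaled signal of each miRNA on the mutant ZT14 array against the mutant ZT2 array, both on log axes, with equality as a solid line and 2-fold as dotted lines. Filled points were detected on both arrays, open triangles on 1 array, drawn at their own signal or at the lowest detected signal where that was higher. The repeat-like miRNAs except miR-712 lie below the lower dotted line while most points follow the diagonal.

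Over the 140 miRNAs the median log2 ratio was -0.16, with a lower quartile of -0.28, an upper quartile of -0.02 and an SD of 0.56 across miRNAs. The median spot SD was 0.13. With this scaling 111 ratios were below 0 (79.3%) and 29 were above 0. That split depends on the scaling. Without scaling it was 90 to 50, scaled by the spike-in control probes 82 to 58, scaled by the median of the 123 miRNAs 59 to 81, and scaled by the 75th percentile over all mouse miRNAs 12 to 128. The last of these moved the median of all miRNAs by 0.50. Small differences were therefore counted relative to the median of the 140 miRNAs. By more than their spot SD, 34 miRNAs (24.3%) were below it and 25 (17.9%) were above it. Log2 ratios of single miRNAs and lists are given on the main scaling, the first one above. The median of -0.16 is not subtracted from them. Both WT arrays detected 137 miRNAs, whose median was -0.12, and 2.92% of them were at least 2-fold lower. The WT ZT14 array was dimmer than the WT ZT2 array, and without scaling the WT median was -0.78, with 135 of the 137 ratios below 0.

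The repeat-like list was the group with the largest decreases. It holds 49 entries of the array, mostly of the miR-297, miR-466, miR-467 and miR-669 families, which come from repeat-rich precursors, with miR-574, miR-1187 and a few others. Their sequences resemble each other and their probes may bind each other's targets, so the members are not independent readings. On the mutant arrays 32 were detected at neither time point, 6 at both and 11 at ZT2 only. All 17 detected members had a lower scaled signal at ZT14 than at ZT2, and 16 of the 17 were at least 2-fold lower, against 13.5% of all detected miRNAs. With undetected signals raised to at least the negative control mean, 15 of the 17 were at least 2-fold lower, against 11% of all. This floor was not applied to detected signals, so miR-466f-3p and miR-706, detected at ZT14 below that mean, kept their measured ratios. The median log2 ratio of the 6 measured members was -2.27, against -0.16 over the 140 miRNAs.

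miR-574-5p, the brightest member, gave 258 units at ZT2 and 72.0 at ZT14. It was 3.82-fold lower (log2 -1.93, spot SD 0.11). Its single spots ran from 172 to 354 units at ZT2 and from 43.9 to 98.3 at ZT14, so the spots of the 2 arrays did not overlap. miR-467f went from 124 to 25.6 units (log2 -2.37, spot SD 0.21), and both values exceed the negative control mean. miR-466i went from 99.6 to 14.4 units (log2 -2.88, spot SD 0.35). Its spots also did not overlap, with 55.5 units as the lowest at ZT2 and 27.4 as the highest at ZT14. miR-1187 went from 113 to 33.4 units (log2 -1.84, spot SD 0.20). miR-466f-3p had the lowest ratio of all miRNAs measured on both arrays, from 86.2 to 7.39 units (log2 -3.63, spot SD 0.65), and its ZT14 signal was under the negative control mean. All 4 of its probes were lower at ZT14, the brightest from 191 to 25.9 units. miR-706 was dim, at 16.8 and 3.95 units, the latter under the negative control mean (log2 -2.18, spot SD 1.60). Only 1 of its 4 probes was above the negative control mean on both arrays, and it went from 62.1 to 22.1 units (log2 -1.58). The median of -2.27 includes miR-706, whose ratio was -0.21 with normexp. The scanner's own summed signal per miRNA turned 4 of these into increases, with log2 ratios of 3.95 for miR-466f-3p, 3.75 for miR-466i, 3.46 for miR-467f and 1.74 for miR-706, although the mean spot signal of each was lower at ZT14.

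**Figure D2:**
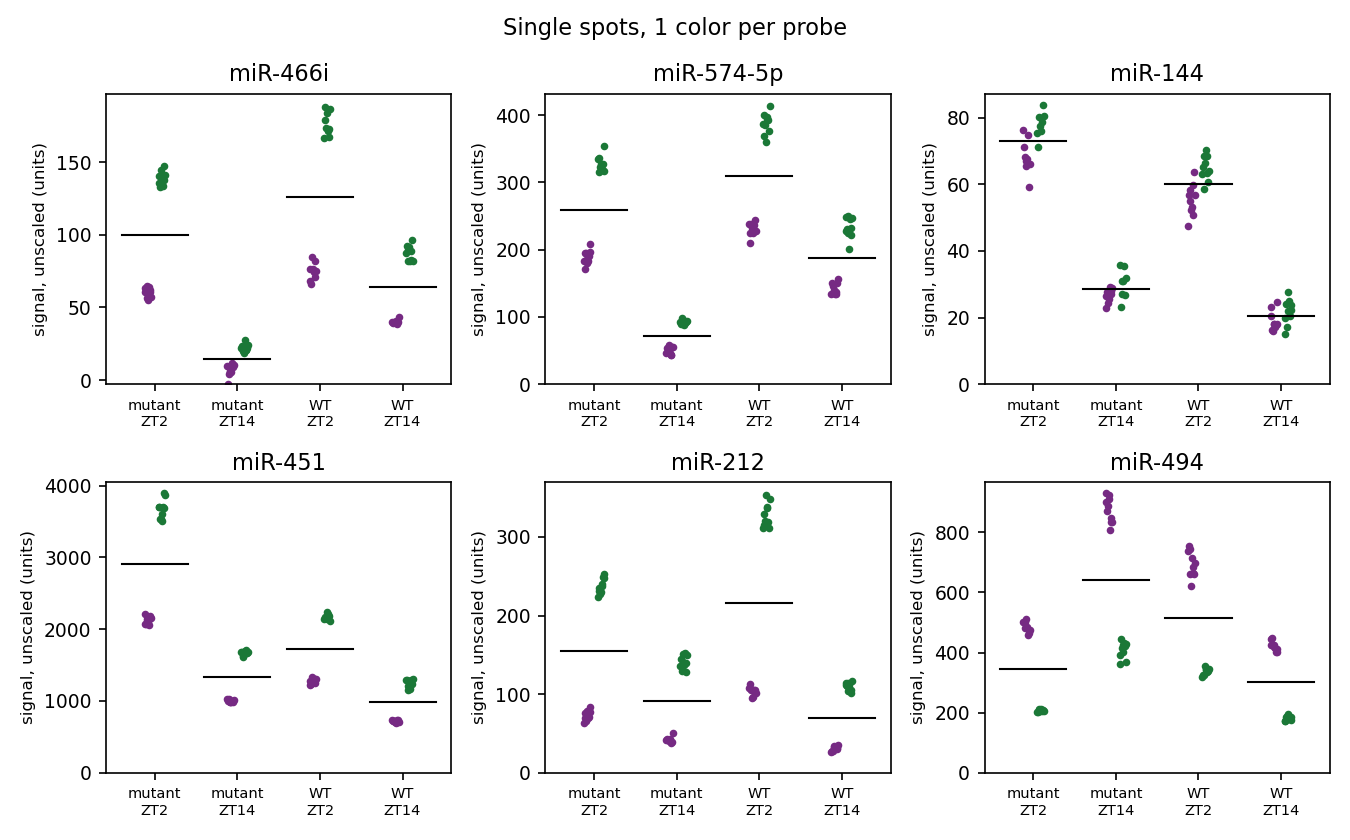
Signal of single spots without outlier flags, unscaled, for 6 miRNAs on the 4 arrays, with 1 color per probe and a black line at the mean of the probe means. For miR-466i, miR-574-5p, miR-144 and miR-451 every spot at mutant ZT14 lies below every spot at mutant ZT2, and for miR-494 each probe lies higher at ZT14.

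Repeat-like miRNAs that were not detected at ZT14 gave bounds only. A bound sets the ZT2 signal against the lowest signal detected at ZT14 or against the miRNA's own signal there, whichever was higher, and a second bound uses the negative control mean as the floor. miR-1196 gave 108 units at ZT2 and 9.36 at ZT14 and was at least 12.3-fold lower, or 11.8-fold with the second floor. miR-574-3p went from 71.6 units to 3.08, at least 24.7-fold or 7.83-fold lower. It comes from the same hairpin as miR-574-5p, so both arms were lower. miR-466g went from 57.8 units to -0.87, at least 30.8-fold or 6.33-fold lower. The bounds of miR-669c, miR-669f, miR-466c-5p and miR-669a lay between 2.60-fold and 5.90-fold, and with the second floor between 2.24-fold and 3.95-fold. miR-669h-3p, miR-468 and miR-467g were at least 11.8-fold, 9.77-fold and 5.26-fold lower with the first floor, and with the second 2.43-fold for miR-669h-3p and 1.08-fold for miR-467g. Detected at ZT2 with only 2.85 units, miR-712 had a bound of 1.52-fold.

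The WT arrays gave ratios closer to 0 for most of these miRNAs. In WT, 14 of the same 17 miRNAs were detected at both time points, and their log2 ratios had a median of -0.10, from -1.11 for miR-1196 to 0.26 for miR-669c. miR-574-5p gave 309 units in WT at ZT2 and 188 at ZT14 (log2 -0.06, spot SD 0.11), miR-467f gave 149 and 86.3 (log2 -0.13, spot SD 0.09), and miR-1187 gave 134 and 90.1 (log2 0.09, spot SD 0.15). The mutant ZT14 array had the lowest unscaled signal of the 4 arrays for 16 of the 17 miRNAs. The difference between genotypes could not be tested, since a model with genotype, time point and their interaction leaves no residual degree of freedom on 4 arrays. Whether it lies with 1 pool, with 1 hybridization or with the genotype was not tested.

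The alternating runs were also searched as a motif, which was taken from the sequences of miRNAs already seen to be lower, so the counts describe these miRNAs and support nothing about them. CACACA or UGUGUG, each the reverse complement of the other, occurred in 40 of 1679 mature mouse sequences in the table, or 2.38%. Of the 163 detected miRNAs, 61 were matched to a single mature sequence and 8 of these held the motif. Not all matches are certain. miR-140 and miR-140*, the 2 strands of 1 hairpin, were both matched to miR-140-3p, so 1 of these is wrong. The matches of miR-23b to miR-23b-5p, of miR-185 to miR-185-3p and of miR-199b* to miR-199b-3p are also uncertain. All of these were counted as without the motif, so the 53 below are approximate. Of the 8, 6 were at least 2-fold lower at ZT14, namely the 6 printed first, among them miR-467g with its bound of 1.08-fold on the second floor. The other 2 were let-7b with a log2 ratio of -0.23 and miR-342-3p with 0.03. Without the motif, 5 of 53 were at least 2-fold lower: miR-144, miR-451, miR-207, miR-468 and miR-706, of which miR-468 and miR-706 stood on the repeat-like list. The match describes letters only.

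Red blood cell miRNAs were lower at ZT14 as well. miR-451 and miR-144, which are made from 1 transcript in developing red blood cells, and miR-486, also of red blood cells, were all detected at ZT2, and all 3 had lower signals at ZT14. miR-451 gave 2901 units at ZT2 and 1336 at ZT14, 2.31-fold lower (log2 -1.21, spot SD 0.06). Both of its probes were lower, with log2 ratios of -1.18 and -1.23. miR-144 gave 73.1 and 28.6 units, 2.72-fold lower (log2 -1.45, spot SD 0.19), with -1.44 and -1.45 for its probes. Both miRNAs fell short of 2-fold under quantile normalization, at -0.64 for miR-451 and -0.88 for miR-144, and with a 75th percentile that took in every mouse miRNA, at -0.71 and -0.95. So did miR-451 with the median over all spots (-0.84) and miR-144 with normexp (-0.53). That median pools both probes of miR-451, each of which was more than 2-fold lower alone. miR-486 gave 14.8 and 6.77 units, was not detected at ZT14 and was at least 2.33-fold lower, or 1.62-fold with the negative control floor. In WT, miR-144 gave 60.1 units at ZT2 and 20.4 at ZT14 (log2 -0.90, spot SD 0.26), and miR-451 gave 1724 and 979 (log2 -0.16, spot SD 0.07). The mutant ZT2 array had the highest miR-451 signal of the 4. The summed signal of the 3 miRNAs was 2989 units at mutant ZT2, 1371 at mutant ZT14, 1793 at WT ZT2 and 1006 at WT ZT14. In whole liver RNA, fewer cells of a type and less RNA per cell cannot be told apart, and the amount of blood in the pools was not tested.

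**Figure D3:**
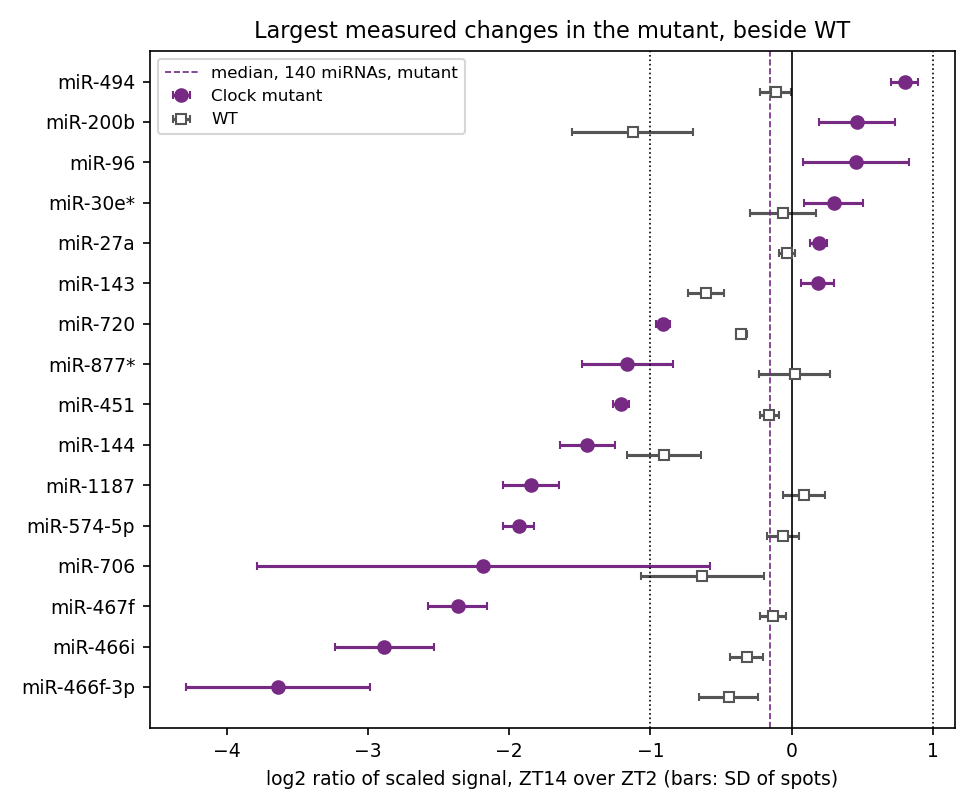
Log2 ratio of ZT14 to ZT2 for the 10 largest decreases and the 6 largest increases that exceeded their spot SD in the mutant, with mutant ratios as filled circles, WT ratios as open squares where both WT arrays detected the miRNA, and bars of 1 spot SD. For miR-466f-3p, miR-466i, miR-467f, miR-574-5p, miR-1187 and miR-451 the mutant circle lies left of -1 and the WT square lies to its right, while miR-144 is low in both genotypes. The mutant values of miR-200b and miR-494 are above 0 and their WT values below.

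Outside these lists 3 miRNAs were at least 2-fold lower, miR-877*, miR-207 and miR-1198, and miR-720 came close. miR-877*, from a short intron, gave 33.4 and 15.9 units (log2 -1.16, spot SD 0.32), but its ratio was -0.27 with normexp and turned to 1.37 with the scanner's summed signal. miR-720, an entry that matches a tRNA fragment rather than a hairpin miRNA, gave 8605 and 4870 units (log2 -0.91, spot SD 0.05). In WT its log2 ratio was -0.36 (spot SD 0.04). The mutant ratio of miR-720 ran from -1.59 with the median over all spots to 0 with quantile normalization. Quantile normalization ranked it alike on both arrays. The 2 probes of miR-720 differ in brightness, and with the main scaling they gave -0.96 and -0.90. The median over all spots pools them, with 8 and 10 spots left at ZT2 and 10 and 10 at ZT14. miR-207 and miR-1198 were not detected at ZT14. Their bounds were 5.66-fold and 2.89-fold with the first floor and 1.89-fold and 1.05-fold with the second.

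Increases were smaller than the largest decreases. With the main scaling 6 of the 140 miRNAs (4.29%) were higher at ZT14 by more than their spot SD and 69 (49.3%) were lower. That split depends on the scaling. Relative to the median of the 140 miRNAs, 25 (17.9%) were above and 34 (24.3%) below by more than their spot SD. miR-494, encoded in the large imprinted miRNA cluster at *Dlk1* and *Dio3*, gave 346 units at ZT2 and 642 at ZT14, 1.74-fold higher (log2 0.80, spot SD 0.10). Both probes were higher, with log2 ratios of 0.76 and 0.89. In WT it gave 515 units at ZT2 and 301.5 at ZT14 (log2 -0.11, spot SD 0.11), so the mutant ZT14 array was the highest of the 4 before scaling. Of 32 miRNAs of that cluster that were looked up after this value was seen, 31 were detected on neither mutant array. miR-27a, which targets lipid and differentiation genes, gave 213 and 259 units (log2 0.19, spot SD 0.06). Its ratio was -0.39 when the median over all spots was used, which pools its probes. Each probe alone was higher, at 0.32 and 0.14. miR-143, of smooth muscle and stellate cells, gave 74.0 and 89.4 units (log2 0.18, spot SD 0.12). miR-30e*, the minor strand of the miR-30e hairpin, gave 40.8 and 53.3 units (log2 0.30, spot SD 0.21).

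Of the miRNAs of bile duct epithelium, miR-200b, miR-200a and miR-96 lay above the median of all miRNAs in the mutant by more than their spot SD, and the others measured did not. miR-200a, miR-200b and miR-429 come from 1 cluster on chromosome 4 and keep epithelial cells in their state by holding down *Zeb1* and *Zeb2*. Their strands show that miR-200b and miR-429 share the seed and miR-200a differs:
miR-200b: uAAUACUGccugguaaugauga
miR-429: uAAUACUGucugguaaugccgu
miR-200a: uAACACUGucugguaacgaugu

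miR-200b gave 24.7 units at ZT2 and 36.3 at ZT14 (log2 0.47, spot SD 0.27). miR-429 was detected at ZT14 only, with 11.7 and 16.8 units, and was at least 1.35-fold higher. miR-200a gave 24.4 and 29.6 units (log2 0.19, spot SD 0.31), a difference within the spread of its spots. miR-96, of another epithelial cluster, gave 17.3 and 25.2 units (log2 0.45, spot SD 0.38), but the scanner's summed signal put it at -2.29. miR-31 and miR-203 were at -0.14 and -0.22. The other 5 of the 11 miRNAs of this list, miR-141, miR-182, miR-183, miR-200c and miR-205, were detected on neither array. The median of the 5 measured on both arrays was 0.19, which is 0.35 above the median of the 140 miRNAs, and 3 of the 5 lay above that median by more than their spot SD, against 17.9% of all. In WT miR-200b was lower at ZT14, from 49.9 to 14.5 units (log2 -1.13, spot SD 0.43). So was miR-200a, from 43.3 to 13.1 units (log2 -1.07, spot SD 0.33). The 4 miRNAs measured on both WT arrays ran from -1.13 to -0.01. With the main scaling miR-31 and miR-203 were below 0 in both genotypes, as were most miRNAs. However, miR-31 in the mutant (-0.14) and miR-203 in WT (-0.01) lay above the medians of all miRNAs, -0.16 and -0.12. All of these signals were under 100 units except miR-31 in WT at ZT2, and miR-200b and miR-200a were highest on the WT ZT2 array. That array also had the highest summed signals of the bile duct and leukocyte lists. It alone detected 3 of the 7 muscle miRNAs, whose summed signal was 155 units there and -9.45 at WT ZT14. Whether the content of that pool bears on the WT ratios was not tested.

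The miR-17-92 family, which promotes cell proliferation, lay below the median of all miRNAs as a group. Its members share 2 seeds among those shown, and miR-19a and miR-19b have one of them:
miR-19a: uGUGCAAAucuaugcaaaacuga
miR-19b: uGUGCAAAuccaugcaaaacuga
miR-20a: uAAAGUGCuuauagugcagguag
miR-20b: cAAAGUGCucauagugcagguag
miR-93: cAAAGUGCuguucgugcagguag
miR-106b: uAAAGUGCugacagugcagau

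Of 11 miRNAs of the family and its paralogs on the array, 9 were detected on both mutant arrays, and miR-17 and miR-363 on neither. With the main scaling all 9 ratios were below 0, against 79.3% of the 140 miRNAs, a share that depends on the scaling. The median of the 9 was -0.40, which is 0.25 below the median of the 140 miRNAs. Relative to that median 7 of the 9 were lower by more than their spot SD, against 24.3% of all, and 0 were higher. miR-19a gave 139 units at ZT2 and 92.8 at ZT14 (log2 -0.67, spot SD 0.11), and miR-19b gave 1048 and 791 (log2 -0.50, spot SD 0.10). The 4 miRNAs with the seed AAAGUGC were close together, at -0.43 for miR-20a, -0.40 for miR-20b, -0.37 for miR-93 and -0.44 for miR-106b. miR-92a (-0.27), miR-25 (-0.19) and miR-18a (-0.13) were the highest of the family. The WT ratios of the 8 members detected on both WT arrays had a median of -0.43. miR-19a was at -0.84 and miR-20b at -0.66 in WT.

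miR-212 was lower at ZT14 in both genotypes. It is cut from 1 transcript with miR-132, which is induced by CREB signaling and has been tied to the resetting of the clock by light in brain. miR-212 gave 155 units at ZT2 and 91.6 at ZT14 in the mutant (log2 -0.85, spot SD 0.13) and 216 and 70.2 in WT (log2 -0.96, spot SD 0.12). miR-132 was detected on neither mutant array. In the list of 23 miRNAs that have been linked to the clock, miR-212 was the lowest and miR-494 the highest, and 14 were detected on both mutant arrays. The median of the 14 was -0.20, close to that of the 140 miRNAs. miR-34a, which targets *Per1*, was at -0.22 (spot SD 0.16), miR-185 at -0.36 (spot SD 0.19) and miR-194 at -0.28 (spot SD 0.07). miR-206, miR-219, miR-182 and 6 others of the list were detected on neither mutant array.

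The miR-29 family, which holds down collagen and other matrix genes, shares 1 seed:
miR-29a: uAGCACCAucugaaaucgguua
miR-29b: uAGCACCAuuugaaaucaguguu
miR-29c: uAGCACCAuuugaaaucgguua

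miR-29b gave 752 and 603 units (log2 -0.41, spot SD 0.08), and miR-29c gave 888 and 721 (log2 -0.39, spot SD 0.06). miR-29a gave 2023 and 1880 units (log2 -0.20, spot SD 0.09), closer to the median of all miRNAs. In WT miR-29b was at -0.34, miR-29c at -0.16 and miR-29a at -0.01.

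Hepatocyte miRNAs and the let-7 family followed the median of all miRNAs. Of 15 hepatocyte miRNAs 13 were detected on both mutant arrays, and their median was -0.17. miR-122, which supports cholesterol and lipid metabolism in liver, was at -0.18 (spot SD 0.11) in the mutant and -0.17 (spot SD 0.10) in WT. It made up 40.8% of the summed signal of detected miRNAs at ZT2 and 42.1% at ZT14. miR-192 was at -0.16 (spot SD 0.08), miR-194 at -0.28, miR-22 at -0.29 (spot SD 0.08) and miR-148a at -0.22 (spot SD 0.07). Apart from the summed signal and the authors' table, the ratio of miR-22 ran from -0.30 to 1.27 over the alternatives. Its probes gave -0.24 and -0.31 with the main scaling. miR-802 gave 18.0 and 18.5 units in the mutant (log2 -0.05, spot SD 0.45), against 69.1 and 27.1 in WT (log2 -0.69, spot SD 0.15). All 9 let-7 miRNAs were detected, from -0.23 for let-7g to 0.05 for let-7e, and their median was -0.15. miR-21, a miRNA of growth and inflammation and the second brightest, gave 11342 and 12630 units (log2 0.07, spot SD 0.07).

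The remaining families differed from the median by little. The 5 miR-30 miRNAs had a median of -0.21 and the 6 miRNAs of the miR-15 and miR-16 family one of -0.15. The 5 miRNAs of the miR-23, miR-24 and miR-27 clusters had a median of -0.08, and 4 of the 5 lay above the median of the 140 by more than their spot SD, against 17.9% of all. The 4 leukocyte miRNAs detected had a median of -0.13 in the mutant, with miR-142-3p at -0.24 (249 and 224 units) and miR-223 at -0.11. In WT their median was -0.72, with miR-142-3p from 419 to 125 units (log2 -1.09). The 14 miRNAs of endothelium and stellate cells had a median of -0.04, with miR-126-3p at -0.23 (spot SD 0.05) and miR-199a-3p at 0.05 (spot SD 0.09).

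**Figure D4:**
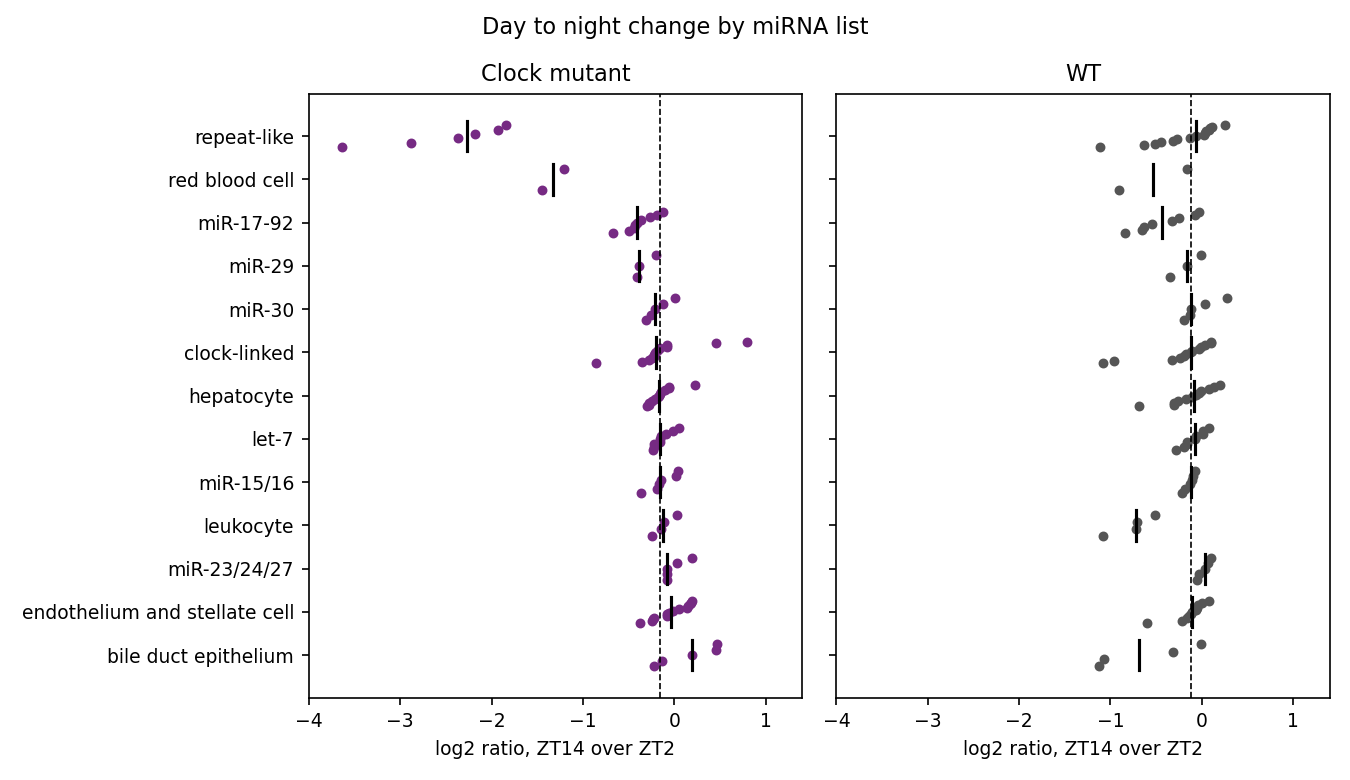
Log2 ratio of ZT14 to ZT2 for the members of 13 lists that were detected on both arrays of a genotype, with 1 point per miRNA, a bar at each list's median and a dashed line at the median of all miRNAs detected on both arrays. In the mutant the repeat-like list has a median of -2.27 and the bile duct list one of 0.19. In WT these medians are -0.06 and -0.69.

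Of 14 miRNAs that the study's text singled out for their difference between genotypes, 10 were detected on both mutant arrays, and miR-429 and miR-532-5p at ZT14 only. Their log2 ratios of ZT14 to ZT2 ran from -0.39 for miR-374 (spot SD 0.53) to 0.14 for miR-340-3p (spot SD 0.77). miR-195 was at 0.05 (spot SD 0.13) and miR-497 at 0.02 (spot SD 0.14). 2 of the 10, miR-195 and miR-497, lay above the median of the 140 miRNAs by more than their spot SD, against 17.9% of all. miR-338-5p gave 2.42 and 1.99 units, the lowest detected signals of both arrays. miR-669d and miR-455 were detected on neither mutant array.

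Both strands of a hairpin were detected on both mutant arrays for 12 precursors. The ratios of the strands differed by more than their combined spot SD for 3 of the 12. miR-30e was at -0.31 (445 and 383 units, spot SD 0.07) and miR-30e* at 0.30, a difference of 0.61 with a spot SD of 0.22. Their strands do not resemble each other:
miR-30e: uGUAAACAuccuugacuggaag
miR-30e*: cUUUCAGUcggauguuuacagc

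miR-30a was at -0.21 and miR-30a* at 0.07, a difference of 0.28 with a spot SD of 0.15. miR-126-3p was at -0.23 and miR-126-5p at -0.37, a difference of -0.15 with a spot SD of 0.11. The strands of miR-22 were alike, at -0.29 and -0.33 with a spot SD of the difference of 0.16.

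A test was possible only for the mean change over both genotypes. With limma, genotype as a covariate and Benjamini-Hochberg adjustment over 123 miRNAs, 0 passed an adjusted p of 0.05, and 12 had an unadjusted p under 0.05. The lowest were miR-212 with a mean log2 change of -0.91 (SE 0.13, adjusted p = 0.195 from limma), miR-144 with -1.17 (SE 0.18) and miR-19a with -0.76 (SE 0.13), each lower in both genotypes. miR-19b, miR-20a, miR-20b, miR-106b and miR-29b were also among the 12. This test bears on the change shared by the genotypes and not on the mutant alone. Across the 123 miRNAs the mutant and WT changes had a Pearson r of 0.13 and a Spearman rho of 0.14. These are given as a description without a p, since all ratios share 4 arrays and miRNAs are not independent.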

How the data were processed

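The authors hybridized 1-color Agilent mouse miRNA arrays and deposited the scanner output of Feature Extraction, in which each spot has a background-subtracted linear intensity, outlier flags and a detection call per miRNA. A table of log2 values that the authors deposited was used only as an alternative. Its columns lie below the log2 of the scanner's summed signal by a median of 3.27 at mutant ZT2 and of -3.32 at mutant ZT14, and the median entry of the table is -6.59 in the former and 0 in the latter, so the columns do not share a zero. No spot was saturated.

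For each miRNA, the intensity was averaged over spots without outlier flags, which were 3.18% and 3.35% of the mouse miRNA spots on the mutant arrays, then over probes, and divided by the array's 75th percentile. Counts of calls used the study's threshold of 2-fold. The limma fit (limma 3.58.1, R 4.3.3) used log2 values and was tested on simulated data. Python 3.11.15, numpy 2.4.6, pandas 2.3.3 and matplotlib 3.10.9 did the rest. Named miRNAs were the 10 largest increases and decreases that exceeded their spot SD (only 6 increases did), bounds of at least 2-fold, the 10 brightest and the members of the lists. The members and lists were chosen with earlier results of these data known. All arrays shared 1 slide and 1 scan. Precision is limited by the number of arrays, 1 per time point, and by signal over background.

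The alternatives were other scalings (none, the 75th percentile over all mouse miRNAs or over those detected on both mutant arrays, the median, quantile normalization with a floor of 1, spike-in probes), the scanner's summed signal, normexp with an offset of 50, the brightest probe, the median over spots, the authors' table, outlier spots kept, another detection call, other floors and thresholds and, for limma, time point alone and each array left out. A filter on dim miRNAs and the removal of the repeat-like list were chosen after seeing the data. The median over spots pools the probes of a miRNA, so it also shifts with the number of outlier spots removed from each probe.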

Additional observations from a re-analysis of the deposited data

Results flagged for a closer look

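For 6 miRNAs the changes from ZT2 to ZT14 ran in opposite directions in the genotypes, each by more than its spot SD. With 1 array per condition the difference itself was not tested. The difference of the log2 ratios, mutant minus WT, was 1.59 for miR-200b (0.47 and -1.13), 0.91 for miR-494 (0.80 and -0.11) and 0.79 for miR-143 (0.18 and -0.60). It was -0.52 for miR-1224 (-0.27 and 0.24), -0.28 for miR-365 (-0.14 and 0.14) and -0.18 for miR-26a (-0.10 and 0.08). The signs of miR-1224, miR-365 and miR-26a change with the scaling, and without scaling all of these were lower at ZT14 in both genotypes. The WT ratio of miR-494 lies close to the WT median of -0.12.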

How the results depend on the processing

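No paired analysis was possible because single arrays stand for the time points. In the mutant, 22 miRNAs were at least 2-fold lower, a count that moved to 5 with normexp, 11 with detection from spots well above background, 9 when counted only where both arrays detected the miRNA, 0 in the authors' log2 table, 13 when only miRNAs with a ZT2 signal over 5 times the negative control mean were counted and 6 without the repeat-like list (the last 2 chosen after seeing the data). The number at least 2-fold higher was 0 and became 1 on scaling by the 75th percentile of all mouse miRNAs, by the median of the 123 miRNAs, with quantile normalization and at a threshold of 1.5-fold, 8 with the median over all spots, 13 with the scanner's summed signal, scaled or not, and 142 in the authors' table. The median log2 ratio of -0.16 became 0.34 on scaling by the 75th percentile of all mouse miRNAs, 0.017 over those detected on both mutant arrays, 0.050 with the median, 0.15 with quantile normalization, 0.017 with the summed signal unscaled, -0.017 with the brightest probe, -0.021 with the median over spots, 0.021 with detection from spots well above background and 6.60 in the authors' table, whose columns carry different offsets. With the summed signal, scaled and unscaled, the log2 ratios turned to 3.95 and 4.05 for miR-466f-3p, 3.75 and 3.85 for miR-466i, 3.46 and 3.55 for miR-467f, 1.74 and 1.84 for miR-706 and 1.37 and 1.47 for miR-877*, although the mean spot signals of these miRNAs were lower at ZT14, and the cause was not tested. In the authors' table they were 2.94, 3.50, 3.91, 5.18 and 4.76, and those of miR-574-5p, miR-1187, miR-144 and miR-451 were 4.83, 4.92, 5.32 and 5.56. Apart from the summed signal and the authors' table, the ratio of miR-494 ran from 0.69 to 1.30, that of miR-451 from -1.22 to -0.64 and that of miR-574-5p from -2.19 to -1.25 over the alternatives. The limma count of 0 became 5 without scaling, 3 with spike-in scaling, 3 with normexp, 3 of 100 miRNAs with detection from spots well above background, 1 with the summed signal unscaled and 123 in the authors' table. Fits with 1 array left out also dropped the genotype covariate. In them the lone array of a time point is assumed to vary like the others, so their counts are not given. The detected miRNAs numbered 163, and 119 with detection from spots well above background. Signal over background limits the dim miRNAs: 13 of the 21 miRNAs detected only at ZT2 had under 20 units there.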

Other observations

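Of the 140 miRNAs detected on both mutant arrays, 44 were on none of the lists. Their log2 ratios had a median of -0.14, an SD of 0.23 and a range from -1.16 for miR-877* to 0.30 for miR-30e*. Split by mean signal, the 47 dimmest of the 140 had a median spot SD of 0.40 and a median ratio of -0.09, and the 47 brightest a median spot SD of 0.08 and a median ratio of -0.22. Of the 121 miRNAs with at least 2 probes above the negative control mean on both mutant arrays, the probes had ratios of 1 sign for 101.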
